A study of Mus musculus with 8 samples.

Results

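The 10 genes described here are Nfe2l2, Keap1, Bach1, Slc7a11, Gclc, Gclm, Hmox1, Nqo1, Txnrd1 and Gpx4, the core of the NRF2 antioxidant response and of cystine uptake. Every accessible region, or peak, whose nearest gene in the deposited table is a member was taken, which gave 94 of 67822 peaks. Of these, 50 lay more than 10 kb from the start site, so a gene's sum includes distant peaks assigned by nearness alone. The assay was ATAC-seq: a transposase cuts open DNA and leaves adapters there, so that a region's tag count reflects how open it is. The cells were CD11b+ microglia, the brain's resident macrophages, from the forebrain. The 4 wild-type libraries came from mice of C57BL/6N background and the 4 knockout libraries from mice that lack Nlrp3 (Nlrp3-/-, also called the Cias1 knockout, from Millennium Pharmaceuticals). This is a germline knockout, so the gene is missing from all cells of these animals and not from microglia alone. The labels give no age or sex of the animals and no treatment, and do not say how many mice stand behind a library. NLRP3 is the sensor of an inflammasome that activates caspase-1, and the comparison asks whether its loss is accompanied by a different openness of the antioxidant genes.

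NRF2, the product of Nfe2l2, is a transcription factor that KEAP1 holds in the cytoplasm and delivers to the proteasome until oxidants or electrophiles modify KEAP1. NRF2 then pairs with small MAF proteins on antioxidant response elements and switches on genes for glutathione synthesis, thioredoxin reduction, heme breakdown and quinone detoxification. BACH1 is a heme-sensing repressor that competes for the same elements. SLC7A11 is the transport subunit of system xc-, which exports glutamate in exchange for cystine, the raw material of glutathione, and in microglia this exchange is a known route of glutamate release. Gene expression and protein were not measured in these samples, so all values below are openness of DNA.

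The library totals ran from 11325865 to 15521580 tags, but the share of tags in peaks ran from 9.79% to 17.5% in wild type and from 4.96% to 26.2% in the knockout. Knockout replicates 1 and 2, whose totals of 12998785 and 14301529 tags were not the lowest, had the smallest shares, at 6.68% and 4.96%. Tags in the 94 peaks followed, from 1028 in knockout replicate 2 to 5051 in knockout replicate 4, yet they made up a narrow 0.145% to 0.161% of all peak tags. Chromosome Y held 201, 255 and 88 tags in wild-type replicates 3 and 4 and knockout replicate 3, and 1 to 13 in the other libraries. These tags were uneven within and between the genotypes. Sex was not a term of the test, and its part in the values below was not tested. The pair of Nlrp3 promoter peaks held 58 to 80 and 54 to 69 tags in each wild-type library, and 1 and 2 tags in the 4 knockout libraries together, as the genotype labels state. All 10 microglial marker genes had a peak, with a median promoter level of 20.7 CPM, normalised counts scaled to a common library size, and their summed level was 2032 to 2336 in wild type and 2292 to 2535 in the knockout. In these medians a gene without a promoter peak counted as 0 CPM. Lists of other cell types had a median promoter level of 0 CPM because most of their genes had no promoter peak. These lists did have other peaks. In wild type and knockout their summed levels were 231 to 346 and 192 to 405 CPM for border macrophages and monocytes, 76.0 to 87.8 and 67.3 to 114 for neurons, 320 to 402 and 365 to 516 for astrocytes, 371 to 418 and 404 to 472 for the oligodendrocyte lineage, and 392 to 430 and 396 to 467 for endothelial and mural cells. The lymphocyte and granulocyte list, with a peak for 3 of its genes, did not overlap, at 52.2 to 55.7 CPM in wild type and 58.0 to 69.6 CPM in the knockout. No marker gene of any list passed the test, with 2 to 10 genes tested per list, where 0.213% of all 15476 tested genes passed. Lists this short cannot show by such a count whether the cell mix differed. The part of other cells in the values below was not tested. In bulk samples a change in the number of cells of a type and a change in signal per cell cannot be told apart.

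Promoter sequences are shown for the 4 genes whose start sites carry the words discussed with the results. They are the 250 bases before the annotated start site, from RefSeq on GRCm38.p6, the assembly known as mm10, written 5′ to 3′ along the gene's strand. In Nfe2l2, Gclm and Txnrd1 the capitals mark TGACNNNGC, the core of an antioxidant response element, on either strand. In Slc7a11 they mark TGATGCAAA and its reverse complement, the word of an amino acid response element, to which ATF4 is known to bind; Slc7a11 is a known ATF4 target. That word was searched after the Slc7a11 sequence had been read. The windows lie at chr2:75704664-75704913 (minus strand), chr3:122245307-122245556 (plus), chr10:82858956-82859205 (plus) and chr3:50443614-50443863 (minus).
Nfe2l2: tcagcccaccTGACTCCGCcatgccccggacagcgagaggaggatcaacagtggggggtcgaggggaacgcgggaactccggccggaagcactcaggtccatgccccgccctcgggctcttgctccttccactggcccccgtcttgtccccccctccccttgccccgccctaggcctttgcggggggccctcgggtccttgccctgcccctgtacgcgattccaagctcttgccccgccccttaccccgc
Gclm: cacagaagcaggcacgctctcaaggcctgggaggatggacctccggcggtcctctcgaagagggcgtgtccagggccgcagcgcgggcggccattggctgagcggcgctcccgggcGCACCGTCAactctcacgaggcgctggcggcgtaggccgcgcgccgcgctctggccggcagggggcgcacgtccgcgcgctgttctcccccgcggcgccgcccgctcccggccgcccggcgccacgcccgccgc
Txnrd1: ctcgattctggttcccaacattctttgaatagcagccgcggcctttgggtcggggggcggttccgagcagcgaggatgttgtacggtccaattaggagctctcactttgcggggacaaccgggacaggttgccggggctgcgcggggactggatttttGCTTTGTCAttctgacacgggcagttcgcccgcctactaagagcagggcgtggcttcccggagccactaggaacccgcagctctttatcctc
Slc7a11: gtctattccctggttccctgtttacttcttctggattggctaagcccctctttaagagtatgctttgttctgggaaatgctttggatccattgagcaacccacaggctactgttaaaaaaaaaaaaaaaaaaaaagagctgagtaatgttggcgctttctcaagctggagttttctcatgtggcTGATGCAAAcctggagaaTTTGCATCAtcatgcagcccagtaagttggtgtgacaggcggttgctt

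RefSeq windows were matched for 8 of the 10 genes, all but Hmox1 and Gclc. These genes have 13 windows, since some have several start sites. The antioxidant core was found in 3 of the 13 windows (23.1%), each of a different gene, against 10.2% of all 32851 promoter windows of the same length. Some of the member windows overlap, and so small a count is not read as a property of these genes. Sequence outside the windows was not searched. The Gclm match, 134 to 126 bases before the start, and the Txnrd1 match, 92 to 84 bases before it, lay inside a peak. The Nfe2l2 match, 240 to 232 bases before the start, lay between its promoter peaks. In Slc7a11 the amino acid response word stood 66 to 58 bases before the start and, on the other strand, 48 to 40 bases before it, both inside the promoter peak. That word was in 0.225% of all windows, and 2 windows in all held it more than once, Slc7a11 being among these. Since the word was chosen after the Slc7a11 sequence had been read, its presence there was fixed in advance, and its rarity elsewhere is no test. TGAGTCA, an AP-1 type word, was in 4.46% of all windows and in none of the member windows. A match is a string of letters in a window, and occupancy by a factor was not measured.

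Loss of Nlrp3 left no member gene past the test. Tags were summed over all peaks of a gene and compared by edgeR's quasi-likelihood test, with p-values adjusted over all genes, and 0 of the 10 genes passed, against a background of 0.213% of 15476 tested genes. None had an unadjusted p under 0.05 (background 5.96%), DESeq2 also called 0, and the lowest edgeR adjusted p was 0.952. The median log2 fold change, knockout over wild type, was -0.01 over the 10 genes and 0.00200 over all genes, with 5 genes above 0 and 5 below. In all 10 the libraries of the genotypes overlapped. Outside Nqo1, the 95% intervals of the fold change of the sums lay between 0.805 and 1.25. A 2-fold difference in either direction thus lay outside the interval of the sum of each of these 9 genes. This does not carry over to each single peak, where the interval lay within 2-fold for 66 of the 82 tested.

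**Figure D1:**
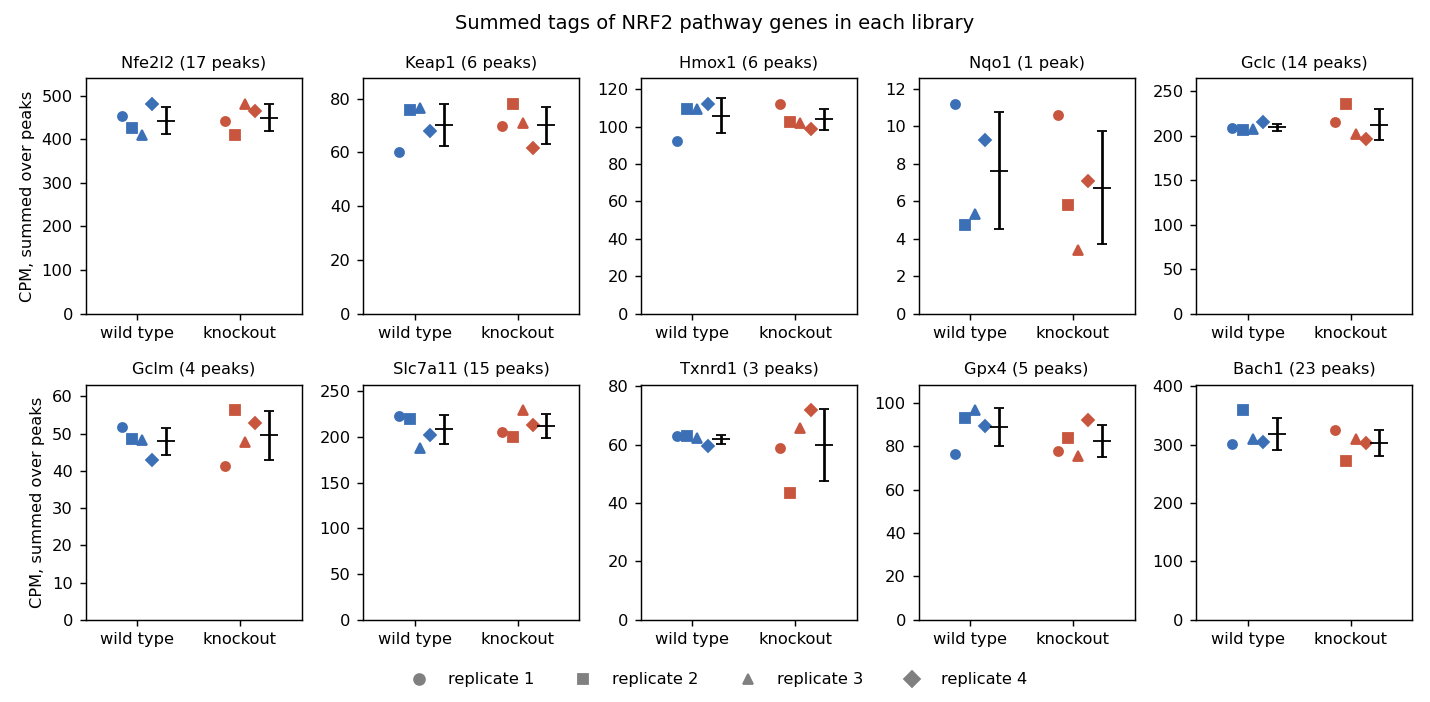
Summed openness of each of the 10 genes in CPM (y axis, from 0) by genotype, with 1 point per library, the replicate number as the marker shape, and a bar for the mean ± SD (n = 4). Wild-type and knockout points overlap in every panel, from Nfe2l2 at 409 to 482 CPM down to Nqo1 at 3.38 to 11.2 CPM.

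Among the regulators, Nfe2l2 had the highest summed level of the 10 genes, Bach1 the next and Keap1 one of the lower ones. Nfe2l2, the NRF2 gene itself (chr2:75675513-75704663), had 17 peaks whose summed level in wild-type replicates 1 to 4 was 454, 426, 410 and 481 CPM, and in knockout replicates 1 to 4 was 441, 409, 482 and 464 CPM. The ranges coincide almost completely. Means were 443 ± 31.4 and 449 ± 31.1 CPM (SD, n = 4 each), a log2 fold change of 0.03 (SE 0.08, 95% interval -0.13 to 0.18, edgeR adjusted p = 0.991). Its promoter peak at chr2:75704479-75704744 was the most open of all 94 per base, at 32.1 CPM per 100 bp averaged over the libraries. That peak held 76.6, 78.0, 92.2 and 93.6 CPM in wild type and 88.1, 76.8, 85.6 and 91.2 CPM in the knockout, with no separation of the genotypes (log2 fold change 0.02, interval -0.24 to 0.27). A further promoter peak, 694 bp upstream, averaged 32.2 CPM in each genotype. The single Nfe2l2 peak without overlap was in intron 1, at chr2:75682927-75683265, 21.6 kb into the gene. There wild type held 42.3, 47.1, 38.1 and 51.2 CPM and the knockout 56.7, 51.7, 52.3 and 52.1 CPM, a narrow gap that edgeR did not call (log2 fold change 0.24, SE 0.15, unadjusted p = 0.108, adjusted p = 1.00). Across its 16 tested peaks the log2 fold changes ran from -0.21 to 0.26.

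Keap1, the adaptor that marks NRF2 for degradation (chr9:21229730-21239332), had 6 peaks and none annotated as promoter. Its summed level was 60.0, 75.7, 76.6 and 68.1 CPM in wild type and 69.6, 78.1, 71.1 and 61.5 CPM in the knockout, and both means rounded to 70.1 CPM (log2 fold change -0.03, interval -0.27 to 0.21). Its single peaks differed more than the sum. A peak annotated to the 5′ UTR in exon 1, 1.6 kb from the start (chr9:21237588-21237851), held 8.95, 14.8, 14.8 and 10.2 CPM in wild type and 20.5, 19.2, 18.0 and 14.6 CPM in the knockout. The highest values, 20.5 and 19.2 CPM, were those of knockout replicates 1 and 2, where few tags lay in peaks. Knockout replicate 4 was within the wild-type range there and the other knockout libraries lay above it (log2 fold change 0.53, SE 0.24, unadjusted p = 0.0346, edgeR adjusted p = 1.00). Without knockout replicates 1 and 2 the log2 fold change was 0.44 (edgeR adjusted p = 0.780), the same sign as with all libraries. The peak 2.2 kb upstream had the opposite sign, with 7.68 ± 0.949 CPM in wild type and 5.64 ± 2.69 CPM in the knockout (log2 fold change -0.61, unadjusted p = 0.0887).

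Bach1, the heme-sensing repressor (chr16:87698954-87733346), had 23 peaks, a number reached by 1.39% of all genes, where the median gene had 3. Of these, 15 were intergenic. Wild-type levels were 302, 359, 309 and 304 CPM and knockout levels 325, 272, 310 and 303 CPM, and the ranges overlapped (log2 fold change -0.07, SE 0.08, interval -0.23 to 0.10). Its most open peak per base was 37.6 kb upstream (chr16:87661214-87661503), at 54.2 ± 5.04 and 54.6 ± 5.64 CPM. The promoter peak held 31.4 ± 5.65 and 25.9 ± 6.93 CPM, and wild-type and knockout libraries overlapped (log2 fold change -0.18). Farther upstream lay a pair of weak peaks with opposite signs. At 64 kb upstream (chr16:87634824-87635061), wild type held 3.98, 4.22, 3.98 and 6.06 CPM and the knockout 13.3, 7.38, 7.03 and 6.79 CPM, with every knockout library above every wild-type library (log2 fold change 0.77, SE 0.35, unadjusted p = 0.0350, edgeR adjusted p = 1.00). At 44.6 kb upstream (chr16:87654262-87654502), wild type held 10.4, 11.2, 11.4 and 8.85 CPM and the knockout 10.9, 4.43, 5.27 and 6.47 CPM (log2 fold change -0.68, unadjusted p = 0.0318, edgeR adjusted p = 0.995). Neither passed the test. The 13.3 CPM at 64 kb and the 10.9 CPM at 44.6 kb were those of knockout replicate 1, where few tags lay in peaks.

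**Figure D2:**
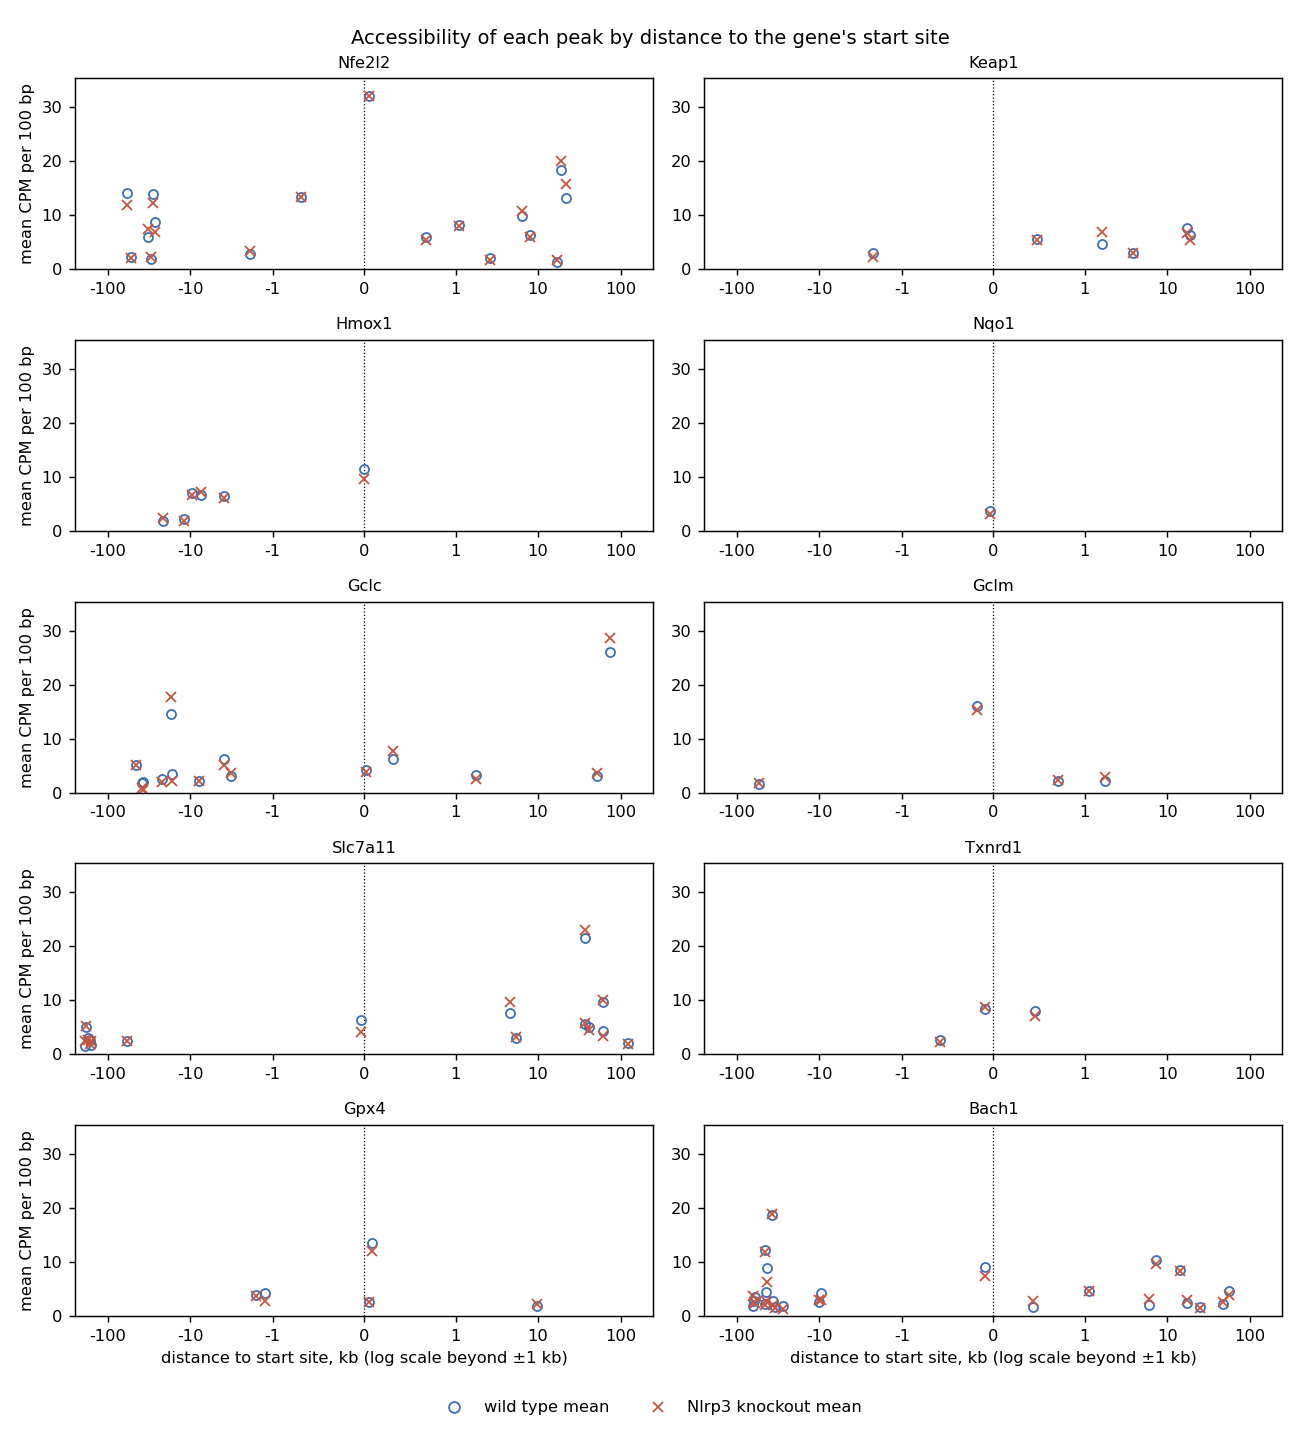
Each of the 94 peaks by its distance to the start site (x axis, kb, linear within 1 kb of the start and log beyond) and its mean openness (y axis, CPM per 100 bp of peak), for wild type (circles) and knockout (crosses, n = 4 libraries each). Nfe2l2 and Gclm are most open at the promoter, whereas Slc7a11, Gclc and Bach1 are most open far from it, and circles and crosses lie close together at the strong peaks.

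In the cystine and glutathione genes the strongest openness lay away from the promoters of Slc7a11 and Gclc. The genotypes did not overlap at 3 tested peaks of this group, 2 of 13 of Slc7a11 and 1 of 12 of Gclc, with 0 of 2 of Gclm. Over all 58135 tested peaks the knockout lay wholly above in 1.68% and wholly below in 1.49%. None of the 3 passed the test, and so small a count is not read as a property of these genes. Slc7a11, the cystine transporter (chr3:50364936-50499087), summed over 15 peaks to 223, 220, 188 and 202 CPM in wild type and 205, 200, 230 and 213 CPM in the knockout. The ranges overlap widely (208 ± 16.1 and 212 ± 13.1 CPM, log2 fold change 0.04, SE 0.08, interval -0.13 to 0.20). Its main peak was in intron 6, 36.6 kb from the start (chr3:50406847-50407111), and made up 27.1% of the gene's summed level, at 57.2 ± 6.60 and 61.2 ± 10.5 CPM. The promoter peak (chr3:50443497-50443801), which covers 188 of the 250 bases printed above and both amino acid response words, made up 7.27%.

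That promoter peak held 20.9, 17.6, 21.1 and 16.8 CPM in wild type and 10.9, 10.3, 13.2 and 16.2 CPM in the knockout. Every knockout library was below every wild-type library, although knockout replicate 4, with 16.2, came close to wild-type replicate 4. In tags these were 42, 25, 37 and 36 against 9, 7, 30 and 50. The lowest values came from knockout replicates 1 and 2, which had the smallest shares of tags in peaks. Means were 19.1 ± 2.22 and 12.6 ± 2.66 CPM, a log2 fold change of -0.49 (SE 0.22, interval -0.94 to -0.04, unadjusted p = 0.0343). Adjusted over all peaks it did not pass (edgeR adjusted p = 1.00). Without knockout replicates 1 and 2 the log2 fold change was -0.36 (edgeR adjusted p = 0.812), the same sign as with all libraries. With only its promoter peak counted, the Slc7a11 gene value was -0.42 in place of 0.04 (edgeR adjusted p = 0.999). The next peak inside the gene, in intron 1 at 4.6 kb (chr3:50438912-50439193), had the opposite arrangement, with 19.9, 26, 16.5 and 23.8 CPM in wild type and 27.8, 28.0, 26.3 and 26.2 CPM in the knockout. Here each knockout library was above each wild-type library, by a small margin (log2 fold change 0.32, SE 0.19, unadjusted p = 0.104, edgeR adjusted p = 1.00).

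Gclc, the catalytic subunit of glutamate-cysteine ligase, the rate-limiting enzyme of glutathione synthesis (chr9:77754535-77794489), had 14 peaks. Its summed level of 208, 207, 207 and 215 CPM in wild type and 215, 236, 202 and 197 CPM in the knockout gave a log2 fold change of 0.00 (0.0003, SE 0.08, interval -0.16 to 0.16). The higher knockout values, 215 and 236 CPM, were those of replicates 1 and 2, where few tags lay in peaks. The promoter peak contributed 5.65% of that level, while a peak 74.1 kb downstream of the start (chr9:77828554-77828783) contributed 28.7%, at 59.9 ± 2.10 and 65.8 ± 9.89 CPM. That peak lies beyond the end of the gene and is annotated as a LINE repeat. A peak 16.6 kb upstream (chr9:77737737-77738035) had the lowest p of the 82 tested. It held 13.9, 9.84, 8.54 and 9.32 CPM in wild type and 6.03, 10.3, 6.15 and 3.23 CPM in the knockout. Knockout replicate 2, where few tags lay in peaks, was inside the wild-type range and the other knockout libraries were below it (log2 fold change -0.93, SE 0.33, unadjusted p = 0.0100, edgeR adjusted p = 0.839). The log2 fold change was -1.20 without knockout replicates 1 and 2 (edgeR adjusted p = 0.207) and -0.58 without knockout replicate 4. The neighbouring peak, 131 bp away and more open (chr9:77737386-77737605), held 25.4, 33.7, 33.6 and 35.9 CPM in wild type and 33.8, 26.6, 54.4 and 41.1 CPM in the knockout (log2 fold change 0.37, unadjusted p = 0.0611). For this neighbour the log2 fold change was 0.57 without knockout replicates 1 and 2 (edgeR adjusted p = 0.293) and 0.14 without knockout replicate 3. A weak peak 22.3 kb upstream also showed no overlap, with 6.69 ± 0.365 CPM in wild type and 5.16 ± 1.01 CPM in the knockout (log2 fold change -0.49); it was singled out after its values had been seen.

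Gclm, the regulatory subunit of the same ligase (chr3:122245487-122267215), had 4 peaks, and its promoter peak held 69.1% of the level. That peak, whose antioxidant core is printed above, held 34.8, 39.4, 36.4 and 32.1 CPM in wild type and 20.5, 34.0, 39.5 and 43.0 CPM in the knockout. The lowest value was that of knockout replicate 1, where few tags lay in peaks. Means were 35.7 ± 3.02 and 34.3 ± 9.89 CPM (log2 fold change 0.03, interval -0.34 to 0.41). The gene sum was 47.9 ± 3.66 CPM in wild type and 49.6 ± 6.56 CPM in the knockout (log2 fold change 0.06, interval -0.21 to 0.33).

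Among the effector enzymes, Hmox1, heme oxygenase-1, which cleaves heme to biliverdin, carbon monoxide and iron (chr8:75093618-75100593), had a promoter peak and 5 upstream peaks. Its summed level was 92.1, 109, 110 and 112 CPM in wild type and 112, 103, 102 and 98.9 CPM in the knockout, and the ranges overlapped (log2 fold change -0.04, SE 0.10, interval -0.24 to 0.16). The promoter peak (chr8:75093459-75093764) held 29.8, 37.9, 36.4 and 36.3 CPM in wild type and 32.6, 22.1, 30.3 and 32.3 CPM in the knockout (log2 fold change -0.21, SE 0.17, unadjusted p = 0.221).

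Nqo1, the quinone reductase often used as a readout of NRF2, had a single weak promoter peak (chr8:107403138-107403356), which had been called in wild type alone. It had between 4 and 23 tags in a library. The gene value was 11.2, 4.73, 5.32 and 9.28 CPM in wild type and 10.6, 5.79, 3.38 and 7.11 CPM in the knockout, and the ranges overlapped. The log2 fold change of -0.33 had an interval from -1.09 to 0.43, so that 2-fold lower openness lay inside the interval at this depth (edgeR adjusted p = 0.952).

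Txnrd1, cytosolic thioredoxin reductase (chr10:82833951-82897724), had 3 peaks within 0.585 kb of a start site. Its level was 62.9, 62.8, 62.2 and 59.7 CPM in wild type and 59.0, 43.4, 65.6 and 72.0 CPM in the knockout. Wild type was tight at 61.9 ± 1.51 CPM and the knockout spread at 60.0 ± 12.3 CPM, with the lowest value in knockout replicate 2 (log2 fold change 0.04, interval -0.22 to 0.29). That library had the smallest share of tags in peaks. The promoter peak with the antioxidant core (chr10:82858931-82859301) was at 31.4 ± 4.41 and 32.7 ± 5.50 CPM, and the promoter peak 585 bp upstream at 7.09 ± 1.06 and 6.25 ± 2.39 CPM.

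Gpx4, the glutathione peroxidase that detoxifies lipid hydroperoxides and holds off ferroptosis (chr10:80047166-80056439), had 5 peaks. Its level was 76.5, 93.3, 96.8 and 89.3 CPM in wild type and 77.9, 83.9, 75.7 and 92.1 CPM in the knockout, with overlapping ranges (log2 fold change -0.09, SE 0.11, interval -0.31 to 0.13). The promoter peak at chr10:80053390-80053748 held 48.2 ± 7.87 and 43.2 ± 7.58 CPM (log2 fold change -0.10), and the next, at chr10:80053779-80054370, held 15.2 ± 2.45 and 15.0 ± 3.88 CPM. An intronic peak 1.2 kb before the main start (chr10:80052118-80052370) held 6.46, 16.9, 12.5 and 6.99 CPM in wild type and 6.03, 13.3, 4.39 and 4.53 CPM in the knockout. Both groups spread widely there (log2 fold change -0.83, SE 0.37, unadjusted p = 0.0358, edgeR adjusted p = 1.00). Only knockout replicate 2, where few tags lay in peaks, was inside the wild-type range, and the other knockout libraries were below it. Over the alternative settings the log2 fold change ran from -1.18 to -0.55, and none passed. A further peak assigned to Gpx4, 9.7 kb downstream, lies in exon 17 of 32 of a transcript of the neighbouring gene Sbno2 and was too weak to test.

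**Figure D3:**
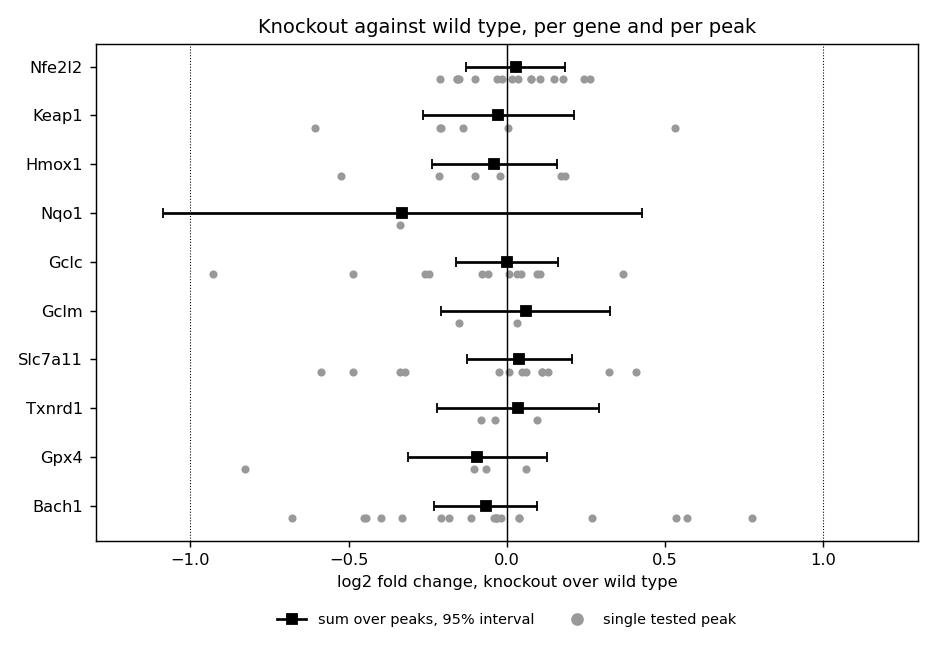
Log2 fold change of knockout over wild type (x axis) for the sum over each gene's peaks (black squares with 95% intervals from edgeR) and for each of its tested peaks (grey points); dotted lines mark 2-fold. Every gene interval includes 0, the widest being that of Nqo1 from -1.09 to 0.43, and single peaks of Gclc, Gpx4, Bach1, Keap1 and Slc7a11 lie farthest from 0.

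Per length of peak, the order of the 10 genes in wild type was Nfe2l2 (86.4 ± 6.13 CPM per kb), Txnrd1 (63.6 ± 1.56), Gclc (54.8 ± 1.01), Slc7a11 (53.2 ± 4.11), Gclm (51.0 ± 3.90), Bach1 (48.5 ± 4.17), Gpx4 (48.3 ± 4.80), Hmox1 (48.0 ± 4.19), Keap1 (47.0 ± 5.20) and Nqo1 (34.9 ± 14.3). The ranges of the 4 libraries were separate only from Nfe2l2 to Txnrd1 and from Txnrd1 to Gclc. From Gclc down, each gene overlapped the next.

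At the level of single peaks, 82 of the 94 were tested and 12 had too few tags, between 41 and 83 over the 8 libraries. The untested ones were 4 peaks of Bach1, 2 each of Gclc, Slc7a11 and Gclm, and 1 each of Nfe2l2 and Gpx4, and 4 of the 12 had been called in the knockout alone, 4 in wild type alone and 4 in both. Among the tested, 0 passed in edgeR (background 0.17% of 58135 peaks), DESeq2 called 0, and the lowest edgeR adjusted p was 0.839. An unadjusted p under 0.05 was reached by 6 of 82, or 7.32%, against 4.83% of all tested peaks. The count was 2 to 5 on leaving out 1 library (all peaks 3.89% to 6.87%). It was lowest without wild-type replicate 1, where the share of all peaks was highest. It was 1 with DESeq2 (all peaks 1.98%) and 0 with scaling to all tags (all peaks 0.291%). It was 7 with no filter (all peaks 5.30%), with robust moderation (4.94%) and without knockout replicates 1 and 2 (7.30%). The 6 are 2 with higher knockout values (Keap1 5′ UTR and Bach1 at 64 kb upstream) and 4 with lower ones (Gclc at 16.6 kb upstream, Bach1 at 44.6 kb upstream, the Slc7a11 promoter and the Gpx4 intron). Every knockout library was above every wild-type library in 3 of the tested peaks (3.66%, background 1.68%) and below in 2 (2.44%, background 1.49%). Each of these shares rests on 2 to 6 peaks and is not read as a property of these genes.

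**Figure D4:**
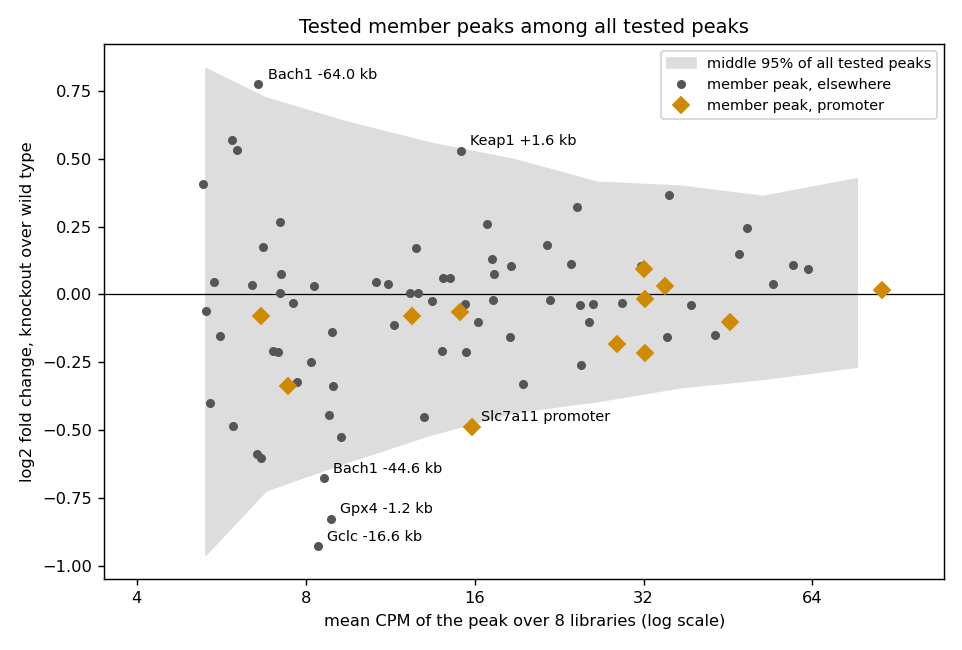
Log2 fold change of each of the 82 tested member peaks (y axis) against its mean CPM (x axis, log scale), with the middle 95% of all tested peaks of like level as a grey band; diamonds are promoter peaks and labels name the 6 peaks with unadjusted p under 0.05. Most points lie in the band, and the Slc7a11 promoter is at its lower edge.

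All 12 promoter peaks, of 9 genes, were tested, and 9 were below 0 and 3 above. This lean was shared by the table, since 62.5% of all 12378 tested promoter peaks were below 0. The median log2 fold change was -0.08 over the member promoters and -0.06 over all promoters. Intronic member peaks had a median of 0.01 (all intronic peaks 0.03) and intergenic ones -0.08 (all 0.03). Promoters took 27.4% to 32.7% of peak tags in wild-type libraries and 27% to 30.7% in knockout libraries, and the part of this in the promoter values was not tested.

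The wider antioxidant network was read from a list of 73 further genes in 8 groups, of which 68 had a peak and 66 were tested. None passed in edgeR, DESeq2 called 0, and 3 had an unadjusted p under 0.05 (4.55%, background 5.96%). The median log2 fold change was 0.03, with 38 genes above 0 and 28 below. Every knockout library was above every wild-type library in Ggt5, Gpx1, Akr1b3 and Lpcat3 and below in Sod1 (4 and 1 of 66, backgrounds 1.78% and 1.67%).

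Sod1, the cytosolic superoxide dismutase, had the lowest p of the 66. Its 7 peaks summed to 121, 130, 110 and 134 CPM in wild type and 105, 98.4, 105 and 106 CPM in the knockout, with all knockout values under the wild-type minimum (log2 fold change -0.25, SE 0.09, unadjusted p = 0.0126, edgeR adjusted p = 0.645). Ggt5, a gamma-glutamyl transferase family member that cleaves leukotriene C4 and other glutathione conjugates, summed to 72.0 ± 7.58 CPM in wild type and 84.8 ± 4.65 CPM in the knockout (log2 fold change 0.26, edgeR adjusted p = 0.737). Lpcat3, which loads polyunsaturated acyl chains into phospholipids, summed to 108 ± 5.82 and 123 ± 4.83 CPM (log2 fold change 0.19, edgeR adjusted p = 0.808). Akr1b3, an aldose reductase, summed to 56.4 ± 1.15 and 68.2 ± 6.22 CPM (log2 fold change 0.23, edgeR adjusted p = 0.831).

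In the remaining groups the gene with the smallest p was Sqstm1 among regulators, Sesn2 among thioredoxin genes, Pgd among NADPH suppliers and Blvra among iron and heme genes. Sqstm1 encodes p62, an autophagy receptor that can bind KEAP1 and so release NRF2, and its 8 peaks summed to 130, 128, 123 and 114 CPM in wild type and 152, 165, 129 and 132 CPM in the knockout. Only the library with 129 CPM overlapped wild type (log2 fold change 0.19, SE 0.10, edgeR adjusted p = 0.838). The higher knockout values, 152 and 165 CPM, were those of replicates 1 and 2, where few tags lay in peaks. Pgd, an enzyme of the pentose phosphate pathway, was at 157 ± 3.07 CPM in wild type and 131 ± 26.4 CPM in the knockout (log2 fold change -0.19). Its low values were 119 and 99.8 CPM in knockout replicates 1 and 2, where few tags lay in peaks, while replicates 3 and 4 held 150 and 156 CPM. Blvra, a biliverdin reductase, was at 48.8 ± 4.89 and 42.9 ± 5.30 CPM (log2 fold change -0.22) and Sesn2 at 197 ± 10.6 and 211 ± 4.11 CPM (log2 fold change 0.10). Of the thioredoxin and peroxiredoxin genes, 11 of 12 tested had a log2 fold change above 0, where 50.5% of all tested genes did, and the 12 values lay between -0.02 and 0.14. None passed, and the sign count was not tested.

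**Figure D5:**
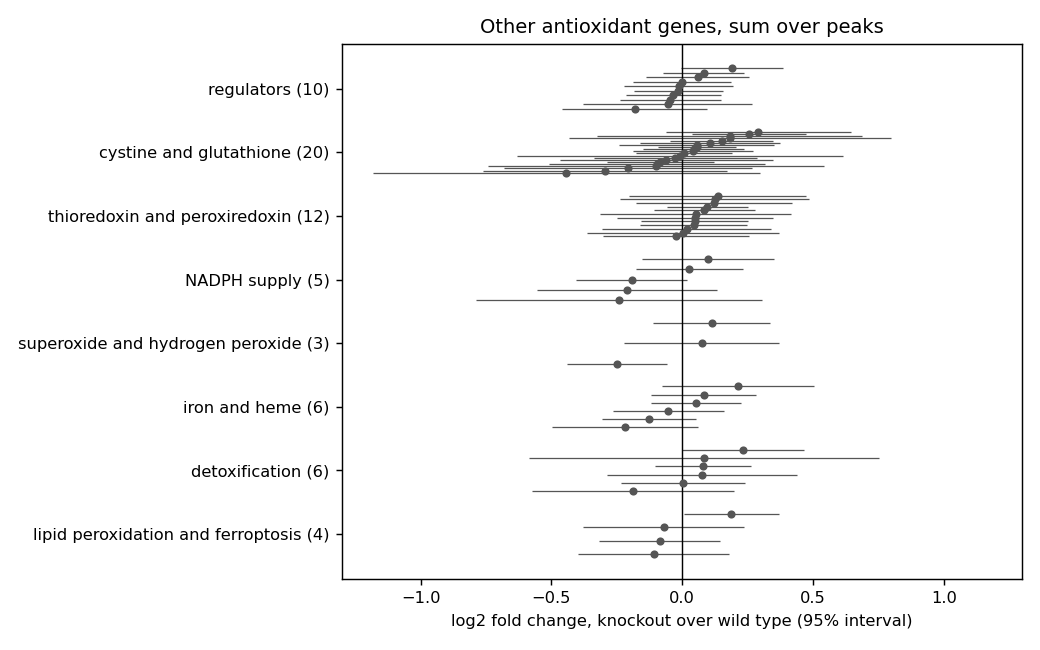
Log2 fold change of knockout over wild type with its 95% interval from edgeR (x axis) for the 66 tested genes of the wider antioxidant list, summed over peaks, in 8 groups (number of tested genes in brackets). Most intervals include 0, among the exceptions those of Sod1 at -0.25 and Ggt5 at 0.26, and no gene passed after adjustment.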

How the data were processed

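Bowtie2, HOMER and DESeq2, with no version, and build mm10 are listed in the submitters' processing notes. The authors merged, per the file headers, reproducible peaks of the wild-type and knockout libraries and counted tags per peak with HOMER, at most 3 tags per position. The deposited values used here are these raw counts of tags per peak and library. For alignment settings, read-end shifting and duplicate removal, no source used here gives the steps. The 117 peaks without a gene (0.134% of peak tags) entered the peak test only.

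Counts per peak, and summed per gene name, were tested with edgeR 4.0.16 (R 4.3.3), using TMM scaling, filterByExpr at a minimum count of 10, the quasi-likelihood F test with genotype as the only term and all 8 libraries, and Benjamini-Hochberg adjusted p under 0.05 over the whole table. CPM are TMM-scaled tags, relative to a library's tags in tested peaks (or genes), brought to the same sum. Standard errors are the log2 fold change over the root of F. Peak and gene fits were scaled separately. Whether replicates are separate animals is not stated, and p-values reflect the spread between these libraries alone, which may be technical. No pair of libraries agreed within sampling noise (lowest chi-square per degree of freedom 1.19).

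The members and lists were chosen with earlier results of these data known. All members are named, with each promoter peak, each gene's most open peak per base, the 5 peaks of smallest p in each direction, and the gene of smallest p in each wider group. Alternatives were other scalings, DESeq2 1.42.0, no filter, robust moderation, a replicate block, promoter peaks only, and leaving libraries out. Promoter windows came from RefSeq (GRCm38.p6).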

Additional observations from a re-analysis of the deposited data

Results flagged for a closer look

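Of 70 groups of 4 libraries (each gene and each named peak in each genotype), 6 (8.57%) had a library set apart from the other 3 by a gap beyond Dixon's critical value. Chance gives about 5% for independent groups. These groups are not independent, since genes share tags with their peaks and some peaks were named for a small p, so the shares are not compared. For the summed level of Hmox1, wild-type replicate 1 held 92.1 CPM while the others held 109 to 112 CPM. For Bach1, wild-type replicate 2 held 359 CPM while the others held 302 to 309 CPM. In the Nfe2l2 intron 1 peak at chr2:75682927-75683265, knockout replicate 1 held 56.7 CPM and the others 51.7 to 52.3 CPM. In the Keap1 peak at chr9:21241435-21241687, knockout replicate 1 held 9.65 CPM and the others 3.95 to 4.53 CPM. In the Bach1 peak at chr16:87634824-87635061 both genotypes had such a library, wild-type replicate 4 with 6.06 CPM (others 3.98 to 4.22 CPM) and knockout replicate 1 with 13.3 CPM (others 6.79 to 7.38 CPM).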

How the results depend on the processing

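In every alternative the number of member genes, member peaks and wider pathway genes that passed was 0. The lowest adjusted p of a member peak ranged from 0.207 (without knockout replicates 1 and 2) to 1.00, and that of a member gene was at least 0.638. Over the whole table, 99 peaks (32 higher, 67 lower) and 33 genes passed. The counts were 65 peaks with DESeq2, 19 peaks (9 higher, 10 lower) and 5 genes with scaling to all tags, and 246 peaks (52 higher, 194 lower) and 70 genes without knockout replicates 1 and 2. Leaving out 1 library gave 65 to 123 peaks, with 65 without knockout replicate 3, and 20 to 42 genes, with 20 without knockout replicate 3 and 21 without wild-type replicate 3. At this depth 12 of the 94 peaks could not be tested. The labels do not say whether the replicate numbers pair the samples, and the correlations did not settle it. Same-number correlations were 0.01, 0.09, -0.02 and 0.19, and those of unlike numbers ran from -0.135 to 0.0892. With a replicate block 140 peaks and 38 genes passed, none of them members, and the block turned the Gclm promoter to -0.00516.

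Of 534 tested alternative log2 fold changes of member genes and named peaks, 50 changed sign, 31 of them on leaving out 1 library, and none passed the threshold; the cause was not tested. Scaling to all tags gave Keap1 gene 0.0518, Hmox1 gene 0.0466, Gpx4 gene 0.0243, Bach1 gene 0.0463, Nfe2l2 peak 694 bp upstream 0.0565, Gclc promoter 0.0694, Txnrd1 peak 585 bp upstream 0.0411, Gpx4 promoter 0.0725, Gpx4 downstream promoter peak 0.0190, Bach1 promoter 0.00581. RLE factors gave Gclc gene -0.00108 and DESeq2 Gclc gene -0.00596. Promoter peaks alone gave Gclc gene -0.00943 and Slc7a11 gene -0.418, and no value for Keap1, which has no promoter peak. Without knockout replicates 1 and 2 the values were Gclc gene -0.0709, Gclc promoter 0.0150, Gclc peak 74.1 kb downstream -0.0296, Gpx4 promoter 0.0157. On leaving out each replicate in turn, the values that changed sign ranged as follows, in log2: Nfe2l2 gene -0.0111 to 0.0702, Keap1 gene -0.102 to 0.0527, Gclc gene -0.0432 to 0.0397, Slc7a11 gene -0.00981 to 0.0718, Txnrd1 gene -0.0768 to 0.116, Nfe2l2 promoter -0.0354 to 0.0528, Nfe2l2 peak 694 bp upstream -0.105 to 0.0612, Gclc promoter -0.423 to 0.118, Gclm promoter -0.108 to 0.171, Slc7a11 intron 6 peak -0.0142 to 0.182, Txnrd1 peak 585 bp upstream -0.205 to 0.0292, Txnrd1 promoter -0.0783 to 0.185, Gpx4 downstream promoter peak -0.167 to 0.0244, Bach1 peak 37.6 kb upstream -0.0255 to 0.0988.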
